A study of Mus musculus with 24 samples.

Results

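A set of 9 genes of the matricellular, coagulation and fibrinolysis systems was followed in the left ventricle: Ccn1, Ccn2, Thbs1, Plaur, Plat, Plau, F3, Thbd and Procr. They were taken by name from the 18820 genes of the deposited array values that could be tested, each from the probe set paired with that symbol alone. All 9 of 9 had exactly 1 such probe set, so no choice between probe sets was needed. The hearts came from adult male mice of strain BL6C57 that were either Per2-/- (labelled Per2 KO, with a germline deficiency of the circadian gene Per2) or wildtype. Each genotype had 4 groups of 3 hearts with 1 array each: I30 (the coronary artery closed for 30 minutes and not reopened), IP0 (ischemic preconditioning, in which the artery was closed for 5 minutes and opened for 5 minutes in 4 cycles), I30R60 (closed for 30 minutes, then reperfused for 60) and sham operation. The sham hearts are named untreated controls in the sample titles and sham operated in the source field. By the labels all mice were anaesthetized and catheterized and all hearts flushed with cold saline, and the methods give pentobarbital and ventilation for the surgery in general. For the arrays the sources used here do not say that the wildtype mice were littermates of the Per2-/- mice, so that genotype and line of origin cannot be told apart.

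Matricellular proteins are secreted into the matrix but signal to cells rather than hold tissue together. Ccn1 and Ccn2, members of the CCN family once named Cyr61 and Ctgf, and Thbs1, which encodes thrombospondin 1, are known as fast-responding genes of mechanically stressed or injured tissue. In fibrinolysis, plasminogen is turned into plasmin by the tissue-type activator Plat and the urokinase-type activator Plau, and urokinase is held at the cell surface by its receptor Plaur. Coagulation is started by tissue factor, encoded by F3. On endothelium it is restrained by thrombomodulin, encoded by Thbd, and by the endothelial protein C receptor, encoded by Procr, which together promote the activation of protein C.

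The promoter windows of 4 of the 9 genes could be read from the RefSeq table of mouse promoters (build GRCm38.p6, 250 bases before to 50 bases after the start of transcription, written 5′ to 3′ along the gene). They are shown because only these 4 were matched in it, not because of their responses. Of the 4, Ccn1, Plaur and Procr rose in both genotypes after reperfusion, whereas F3 passed the test in no comparison. Ccn2, Plat and Thbd, which also rose in both genotypes, had no window matched. The windows lie at chr3:145649936-145650235 on the minus strand for Ccn1, and on the plus strand at chr7:24462233-24462532 for Plaur, at chr2:155750967-155751266 for Procr and at chr3:121723287-121723586 for F3. The Plaur window lies inside the gene as listed, which runs from 24460937 to 24475970. The start site of the Procr window also lies inside its gene as listed, which runs from 155751125 to 155755478. Positions of matches are counted from the start site of the window. Capitals mark matches, on either strand, of the letters searched, which were TATAAA for the TATA box, GGAATG for TEAD factors, TGANTCA for AP-1, TGACGTCA for the cyclic AMP response element, GGGCGG for SP and KLF factors, and the CArG box and NF-kB site by name. Matches that touch or overlap run together, as in Plaur, where 3 GGGCGG matches run together, and in Ccn1, where a TATA box is followed by GGGCGG.
Ccn1: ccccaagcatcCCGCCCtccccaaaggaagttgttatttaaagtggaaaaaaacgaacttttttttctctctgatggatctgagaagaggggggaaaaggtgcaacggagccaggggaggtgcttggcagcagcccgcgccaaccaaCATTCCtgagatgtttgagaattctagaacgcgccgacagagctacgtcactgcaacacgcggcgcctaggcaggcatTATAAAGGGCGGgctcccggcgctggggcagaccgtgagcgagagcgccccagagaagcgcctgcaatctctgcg
Plaur: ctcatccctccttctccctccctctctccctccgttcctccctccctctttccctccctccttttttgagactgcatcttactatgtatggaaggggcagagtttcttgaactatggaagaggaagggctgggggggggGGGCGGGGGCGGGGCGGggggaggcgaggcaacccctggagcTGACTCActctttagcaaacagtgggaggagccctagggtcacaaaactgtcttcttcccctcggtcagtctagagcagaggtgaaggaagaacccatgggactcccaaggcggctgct
Procr: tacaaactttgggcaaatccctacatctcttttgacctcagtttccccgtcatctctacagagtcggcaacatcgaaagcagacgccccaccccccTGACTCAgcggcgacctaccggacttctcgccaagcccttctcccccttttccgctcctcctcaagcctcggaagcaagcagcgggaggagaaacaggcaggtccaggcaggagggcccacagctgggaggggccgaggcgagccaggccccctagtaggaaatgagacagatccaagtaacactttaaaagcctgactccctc
F3: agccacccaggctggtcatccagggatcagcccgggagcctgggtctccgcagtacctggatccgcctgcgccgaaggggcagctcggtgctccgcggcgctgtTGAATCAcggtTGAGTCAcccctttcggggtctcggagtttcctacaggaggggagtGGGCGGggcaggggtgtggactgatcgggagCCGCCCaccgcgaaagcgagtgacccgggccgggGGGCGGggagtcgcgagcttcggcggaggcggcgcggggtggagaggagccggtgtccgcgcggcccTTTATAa
Ccn1 had a TATA box whose first base lay at -25 from the start site, a TEAD match on the reverse strand at -103 and no AP-1 match. AP-1 letters stood at -69 in Plaur, at -154 in Procr and at -146 and -135 in F3. Of the 32851 promoter windows in the table, 13.62% held the TATA box, 14.66% the TEAD letters, 7.808% the AP-1 letters, 35.66% the SP and KLF letters, 1.79% the cyclic AMP response element, 1.629% the CArG box and 4.505% the NF-kB site. None of the 4 windows held one of the last 3. A match is only a run of letters, not a site shown to be bound.

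Values are log2 intensities normalized by RMA, so that a difference of 1 is a doubling. The 24 arrays were fitted together in limma, with the Benjamini-Hochberg adjustment of p values taken over the 18820 genes. A gene is said to have risen, fallen or been called where the adjusted p was under 0.05. Between hearts of a group the median SD of all genes was 0.172. Levels of different probe sets are not compared as amounts of RNA, because the array gives no level per length. Percentiles and the median of gene means serve only to mark dim signals. The Per2 probe set ranged over 4.94 to 6.25 in Per2-/- hearts and over 4.66 to 6.71 in wildtype hearts. The sources used here do not say whether it lies in the deleted part, so it checks no label. Transcripts listed for ventricular muscle were even (means over 9 of 10 listed genes of 12.79 to 12.84 by group). Whether this list tells the chambers of the heart apart was not tested. The atrial light chain Myl7 lay above 5 in 4 arrays, Per2-/- sham replicate 3 (11.21) and IP0 replicate 3 (9.12) and wildtype sham replicates 1 (8.24) and 2 (5.22), and was at most 3.73 elsewhere. Per2-/- sham replicate 3 was the lowest of its group for 7 of the 9 genes (Ccn1, Ccn2, Thbs1, Plaur, Plat, Plau and Thbd). For some calls values are also given without the 4 high arrays. That leaves 1 wildtype sham heart (replicate 3), so comparisons that use wildtype sham hearts are then given as differences only. In whole ventricle, fewer cells of a type and less RNA per cell cannot be told apart.

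**Figure D1:**
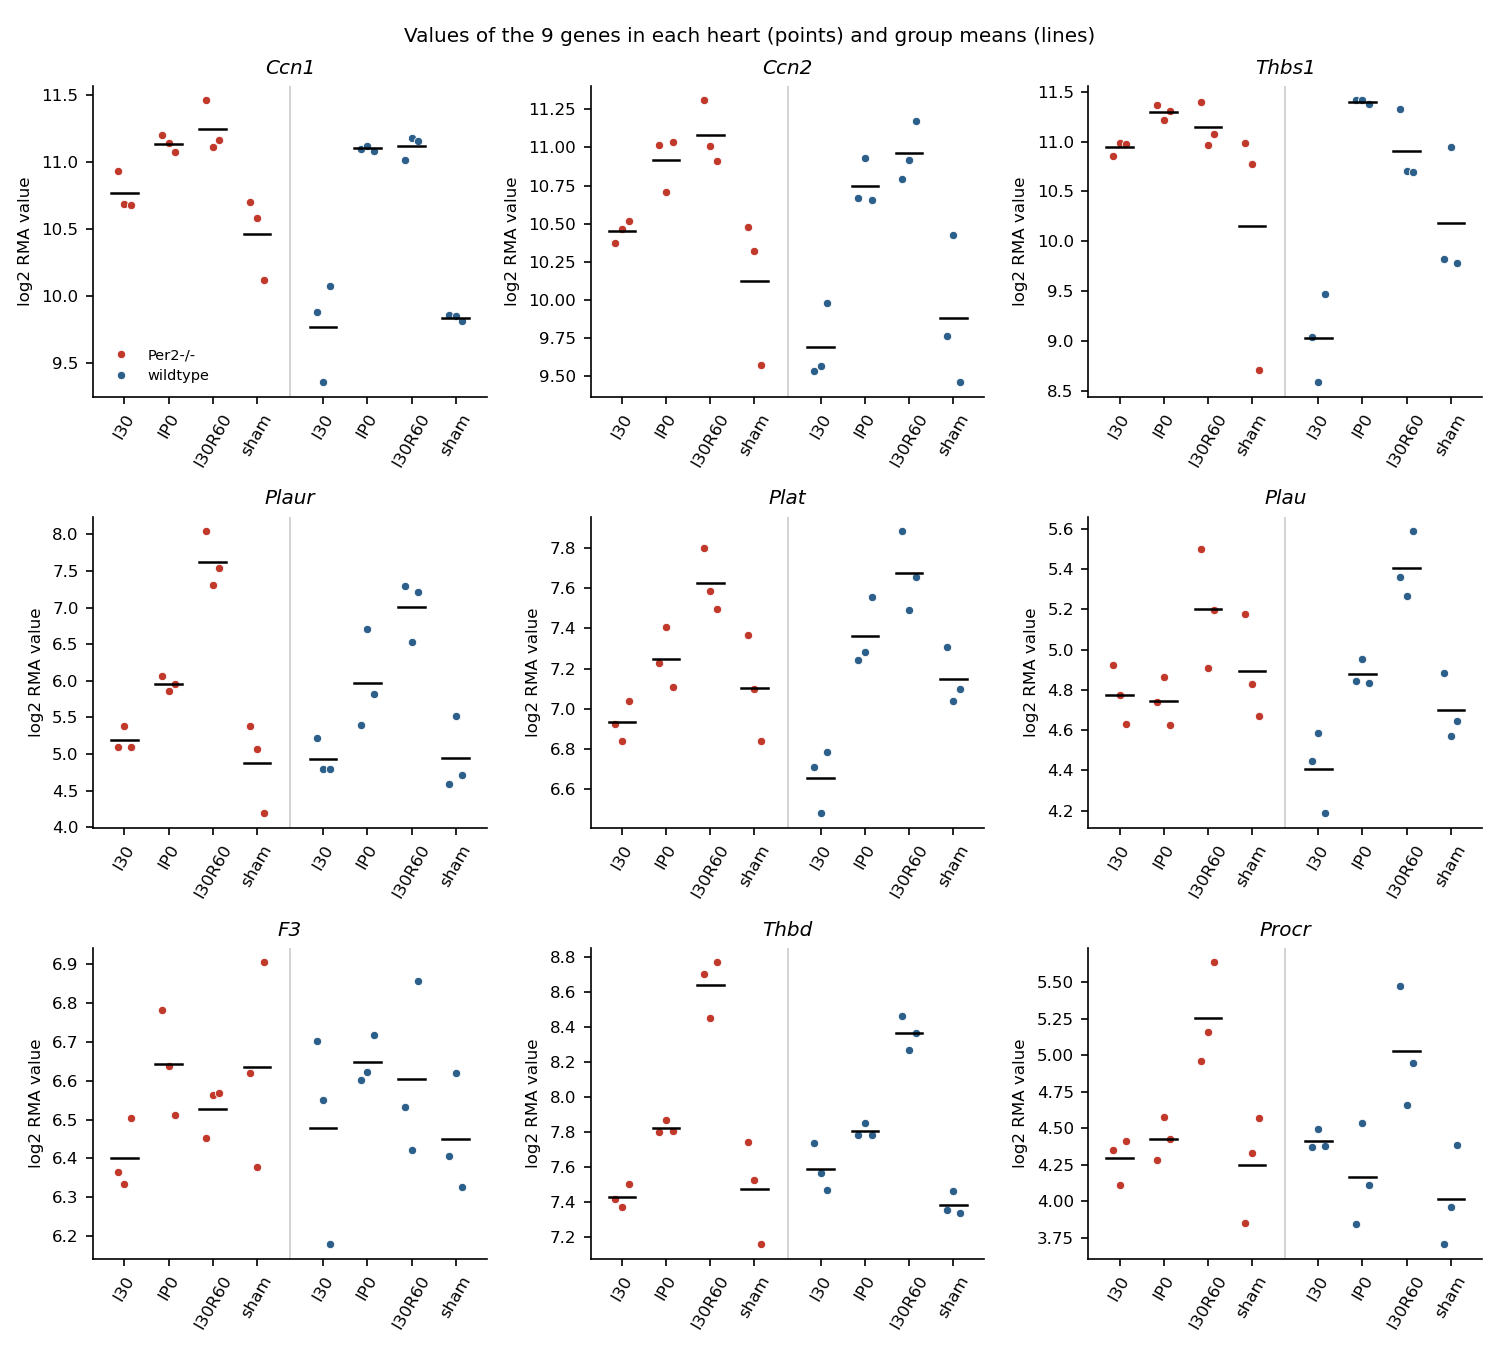
Values of the 9 genes in the 24 hearts. Each panel shows 1 gene, the y axis is the log2 RMA value, points are hearts (red Per2-/-, blue wildtype) and lines are means of 3. All genes but Thbs1 and F3 had their highest means in I30R60 hearts in both genotypes. Ccn1 also stood near 11.1 in all IP0 hearts, and F3 showed no ordered pattern.

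After ischemia and reperfusion most of the set was higher than in sham hearts in both genotypes. This comparison joins ischemia, reperfusion and the time that both take. In I30R60 hearts 6 of 9 genes rose against sham in Per2-/- mice (Ccn1, Ccn2, Plaur, Plat, Thbd and Procr), where 2.78% of all genes tested rose. In wildtype mice 7 of 9 rose (the same 6 and Plau), where 1.66% of all genes rose. None of the 9 fell in either genotype. The median difference over the 9 was 0.95 in Per2-/- and 0.98 in wildtype hearts, against medians of -0.04 and -0.02 over all genes. Averaged over both genotypes, a comparison added after the values were seen, 7 of 9 rose, where 4.29% of all genes rose.

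Plaur, the urokinase receptor, moved most. Its values were 8.05, 7.31 and 7.54 in Per2-/- I30R60 hearts and 5.38, 5.08 and 4.19 in Per2-/- sham hearts. In wildtype mice they were 7.29, 6.53 and 7.21 in I30R60 hearts and 4.59, 5.52 and 4.71 in sham hearts. Every reperfused heart lay above every sham heart of its genotype. The rise was 2.75 (SE 0.32, adjusted p = 2.27e-05), or 6.72-fold, in Per2-/- and 2.07 (SE 0.32, adjusted p = 0.000797), or 4.19-fold, in wildtype hearts. By size of rise Plaur stood at rank 14 of 18820 genes in Per2-/- and at rank 21 in wildtype hearts. All 3 Per2-/- I30R60 hearts exceeded the 3 wildtype I30R60 hearts, by 0.62 on average (SE 0.32, 95% CI -0.05 to 1.29), but this did not pass the test (adjusted p = 0.644), nor did the interaction of genotype and I30R60 (0.68, SE 0.46, adjusted p = 0.957).

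The plasminogen activators had smaller differences than Plaur, the receptor of the urokinase-type activator. Plat, the tissue-type activator, had values of 7.80, 7.59 and 7.5 in Per2-/- I30R60 hearts, against 7.36, 7.10 and 6.84 in Per2-/- sham hearts. In wildtype mice it had 7.88, 7.49 and 7.66 in I30R60 hearts, against 7.31, 7.04 and 7.10 in sham hearts. The groups did not overlap, and the rise was 0.53 in both genotypes (SE 0.14, adjusted p = 0.0307 in Per2-/- and 0.0434 in wildtype hearts). The Per2-/- call was lost on leaving out sham replicate 2 or 3 or I30R60 replicate 1 or 2 (log2 differences of 0.52, 0.40, 0.44 and 0.55, adjusted p = 0.0801, 0.159, 0.147 and 0.0578), and the wildtype call on leaving out sham replicate 1, 2 or 3 or I30R60 replicate 1 or 3 (0.61, 0.47, 0.50, 0.43 and 0.54, adjusted p = 0.0511, 0.156, 0.149, 0.245 and 0.0932). In Per2-/- hearts the call did not hold without the arrays with high Myl7 (0.40, adjusted p = 0.186). In wildtype hearts that refit left 1 sham heart, replicate 3, and the difference was 0.58. Averaged over both genotypes Plat rose by 0.53 (SE 0.10, adjusted p = 0.0012).

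Plau, the urokinase-type activator, had values of 5.5, 4.91 and 5.20 in Per2-/- I30R60 hearts and 5.18, 4.83 and 4.67 in Per2-/- sham hearts, which overlap. In wildtype mice it had 5.36, 5.27 and 5.59 in I30R60 hearts and 4.89, 4.57 and 4.65 in sham hearts, which do not. Plau is dim on this array, at the 47.4th percentile of gene means. It rose in wildtype hearts by 0.70 (SE 0.15, adjusted p = 0.0105), and the difference in Per2-/- hearts was 0.31 (SE 0.15, adjusted p = 0.286). The genotypes were not shown to differ in this (interaction -0.40, SE 0.21, 95% CI -0.84 to 0.04, adjusted p = 0.935). The wildtype difference was 0.64, 0.68 and 0.61 without sham replicate 2 or 3 or I30R60 replicate 3 (adjusted p = 0.0575, 0.0526 and 0.0608). Without the arrays with high Myl7, which left 1 wildtype sham heart, it was 0.76.

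Of the coagulation genes of the set, Thbd and Procr rose and F3, which encodes tissue factor, was not called. Other coagulation genes, inhibitors among them, are given further below. Thbd had values of 8.70, 8.45 and 8.77 in Per2-/- I30R60 hearts and 7.74, 7.53 and 7.16 in Per2-/- sham hearts. In wildtype mice it had 8.46, 8.27 and 8.36 in I30R60 hearts and 7.36, 7.46 and 7.34 in sham hearts. It rose by 1.16 (SE 0.11, adjusted p = 3.36e-06), or 2.24-fold, in Per2-/- and by 0.98 (SE 0.11, adjusted p = 3.04e-05), or 1.97-fold, in wildtype hearts. By p value it stood at rank 15 of 18820 genes in Per2-/- and at rank 29 in wildtype hearts, and both calls held without any 1 array. Procr, at 4.96, 5.16 and 5.64 in Per2-/- I30R60 hearts and 3.86, 4.33 and 4.57 in Per2-/- sham hearts, rose by 1.00 (SE 0.23, adjusted p = 0.0116).

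In wildtype mice Procr had 5.47, 4.66 and 4.95 in I30R60 hearts and 3.71, 3.96 and 4.39 in sham hearts, a rise of 1.01 (SE 0.23, adjusted p = 0.016). Procr is dim on this array, at the 44.3th percentile of gene means, and its SD within groups was 0.30. Its Per2-/- call was lost without sham replicate 1 (0.80, adjusted p = 0.0743) or I30R60 replicate 3 (0.81, adjusted p = 0.0705). Its wildtype call was lost without sham replicate 1 or 2 or I30R60 replicate 1 (0.85, 0.98 and 0.78, adjusted p = 0.111, 0.0591 and 0.131). Without the arrays with high Myl7, which left 1 wildtype sham heart, its wildtype difference was 0.64. F3 had values of 6.45, 6.56 and 6.57 in Per2-/- I30R60 hearts and 6.62, 6.38 and 6.91 in Per2-/- sham hearts. In wildtype mice F3 had 6.53, 6.42 and 6.86 in I30R60 hearts and 6.41, 6.62 and 6.33 in sham hearts. Its differences were -0.11 (95% CI -0.40 to 0.19, adjusted p = 0.766) in Per2-/- and 0.15 (95% CI -0.14 to 0.45, adjusted p = 0.72) in wildtype hearts, intervals that leave out a doubling. Over the 24 arrays F3 spanned 0.727, the narrowest range of the 9, and Plaur spanned 3.86, the widest.

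Of the matricellular genes, Ccn1 and Ccn2 rose after reperfusion. Ccn1 had values of 11.46, 11.11 and 11.17 in Per2-/- I30R60 hearts and 10.70, 10.58 and 10.12 in Per2-/- sham hearts. In wildtype mice it had 11.02, 11.18 and 11.16 in I30R60 hearts and 9.86, 9.85 and 9.81 in sham hearts. The reperfused hearts of the genotypes overlapped, and every wildtype sham heart lay below every Per2-/- sham heart. Ccn1 rose by 0.78 (SE 0.15, adjusted p = 0.00365) in Per2-/- and by 1.28 (SE 0.15, adjusted p = 3.14e-05) in wildtype hearts. Without the arrays with high Myl7 the Per2-/- rise was 0.61 (adjusted p = 0.0613). The interaction, -0.50 (SE 0.21, unadjusted p = 0.0309), did not pass the test (adjusted p = 0.896).

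Ccn2 had values of 11.31, 11.01 and 10.91 in Per2-/- I30R60 hearts and 10.48, 10.32 and 9.57 in Per2-/- sham hearts. In wildtype mice it had 10.79, 10.92 and 11.17 in I30R60 hearts and 9.76, 10.42 and 9.46 in sham hearts. It rose by 0.95 (SE 0.22, adjusted p = 0.0141) in Per2-/- and by 1.08 (SE 0.22, adjusted p = 0.0085) in wildtype hearts. The Per2-/- call was lost without sham replicate 3 (0.68, adjusted p = 0.0954) or I30R60 replicate 1 (0.84, adjusted p = 0.0812), and the wildtype call without sham replicate 3 (0.87, adjusted p = 0.0675). Thbs1 was not called. Its sham hearts were far apart, at 10.99, 10.78 and 8.71 in Per2-/- and 9.83, 10.95 and 9.78 in wildtype mice, while I30R60 hearts had 11.40, 10.96 and 11.07 in Per2-/- and 11.32, 10.70 and 10.70 in wildtype mice. Its differences were 0.99 (SE 0.41, adjusted p = 0.193) in Per2-/- and 0.73 (SE 0.41, adjusted p = 0.469) in wildtype hearts. Over both genotypes Thbs1 differed by 0.86 (SE 0.29, adjusted p = 0.0674), with values of 0.50 (adjusted p = 0.12, without Per2-/- sham replicate 3) to 1.06 (adjusted p = 0.0218, without Per2-/- sham replicate 1) when 1 array was left out. It was also called without Per2-/- or wildtype sham replicate 2 (1.01 and 1.05, adjusted p = 0.0408 and 0.0255). Without the arrays with high Myl7, which left 1 wildtype sham heart, the difference was 0.70.

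**Figure D2:**
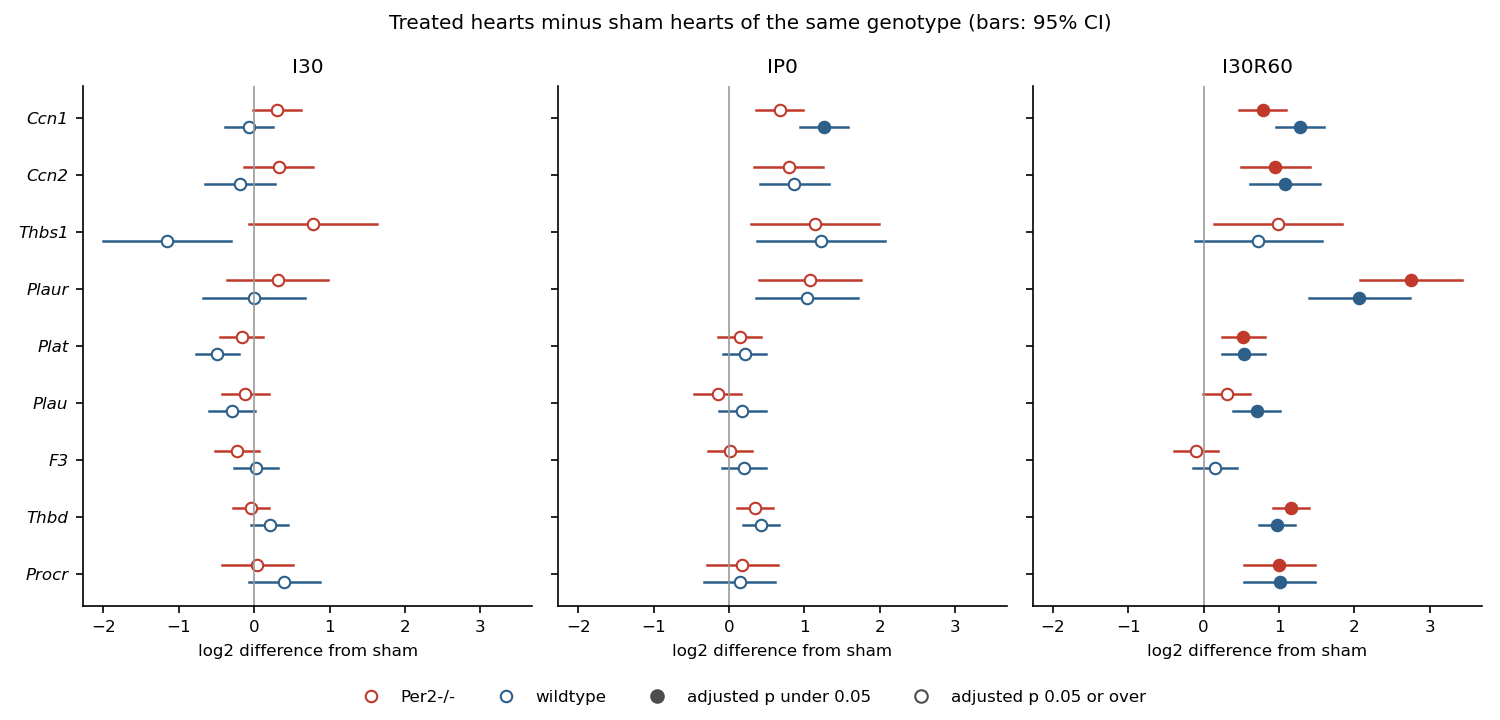
Log2 differences of the 9 genes from the sham hearts of the same genotype after I30, IP0 and I30R60. Points are estimates from 3 hearts against 3 (red Per2-/- above blue wildtype), bars are 95% CI, and filled points have an adjusted p under 0.05. Filled points stand in the I30R60 panel (6 red and 7 blue) and, for wildtype Ccn1 at 1.26, in the IP0 panel.

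Cell type markers moved in the same hearts, and their part in these rises was not tested. Of 11 measured of 12 listed neutrophil markers, 6 rose in Per2-/- I30R60 hearts and 1 in wildtype I30R60 hearts. The mean level of the list ranged over 4.21 to 4.95 in Per2-/- I30R60 hearts and 3.20 to 3.46 in Per2-/- sham hearts, and over 4.00 to 4.81 in wildtype I30R60 hearts and 3.57 to 3.62 in wildtype sham hearts. The alarmin S100a8, a defining marker, rose by 1.97 (SE 0.34, adjusted p = 0.00123) in Per2-/- I30R60 hearts. Plaur is known on neutrophils and monocytes. Platelet markers (7 measured of 10 listed) had 0 calls in limma in the comparisons of each genotype with its sham hearts. Their mean level ranged over 4.72 to 5.16 in Per2-/- I30R60 hearts and 4.60 to 4.61 in Per2-/- sham hearts, and over 4.79 to 4.90 and 4.60 to 4.61 in the same groups of wildtype hearts. Endothelial markers, all 12 measured, held a mean level of 8.74 to 9.07 in Per2-/- I30R60 hearts and 8.96 to 9.05 in Per2-/- sham hearts, and of 8.86 to 9.03 in wildtype I30R60 hearts and 8.97 to 9.12 in wildtype sham hearts. Of these 12, 2 fell in Per2-/- I30R60 hearts, Kdr, a receptor of VEGF, and Egfl7 (-0.69 and -0.71, adjusted p = 0.0325 and 0.00129), and 0 were called in wildtype I30R60 hearts. The median difference over the list was -0.05 in Per2-/- and -0.0032 in wildtype hearts.

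I30R60 hearts were then set against I30 hearts, which asks what changed in the hour after flow returned. No sham group timed to each protocol is named, so the return of flow was not tested apart from the longer time. Between I30R60 and I30 hearts 4 of 9 genes rose in Per2-/- mice (Plaur, Plat, Thbd and Procr), where 3.69% of all genes rose, and 7 of 9 rose in wildtype mice (Ccn1, Ccn2, Thbs1, Plaur, Plat, Plau and Thbd), where 3.24% of all genes rose. Plaur rose by 2.44 (SE 0.32, adjusted p = 9.15e-05) in Per2-/- and by 2.07 (SE 0.32, adjusted p = 0.000611) in wildtype hearts. Thbd, with 7.42, 7.37 and 7.5 in Per2-/- I30 hearts and 7.74, 7.56 and 7.47 in wildtype I30 hearts, rose by 1.21 (SE 0.11, adjusted p = 3.2e-06) in Per2-/- and by 0.77 (SE 0.11, adjusted p = 0.000387) in wildtype hearts. Plat, with 6.93, 6.84 and 7.04 in Per2-/- I30 hearts and 6.71, 6.48 and 6.78 in wildtype I30 hearts, rose by 0.69 (SE 0.14, adjusted p = 0.00408) in Per2-/- and by 1.02 (SE 0.14, adjusted p = 0.000168) in wildtype hearts.

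Plau rose in wildtype hearts by 1.00 (SE 0.15, adjusted p = 0.000417) above I30 values of 4.45, 4.59 and 4.19, and differed by 0.42 (SE 0.15, adjusted p = 0.109) in Per2-/- hearts from I30 values of 4.92, 4.78 and 4.63. Procr rose in Per2-/- hearts by 0.96 (SE 0.23, adjusted p = 0.0145), a call lost without I30 replicate 2 (0.87, adjusted p = 0.0689) or I30R60 replicate 3 (0.77, adjusted p = 0.0865), and differed in wildtype hearts by 0.61 (SE 0.23, adjusted p = 0.121). The matricellular genes rose in wildtype hearts: Ccn1 by 1.35 (SE 0.15, adjusted p = 3.1e-05), Ccn2 by 1.27 (SE 0.22, adjusted p = 0.00171) and Thbs1 by 1.88 (SE 0.41, adjusted p = 0.00942). Without wildtype I30R60 replicate 1 the rise of Thbs1 was 1.67 (adjusted p = 0.0553). In Per2-/- hearts they differed by 0.48 (SE 0.15, adjusted p = 0.072), 0.63 (SE 0.22, adjusted p = 0.111) and 0.20 (SE 0.41, adjusted p = 0.849). Their I30 values lay above those of wildtype I30 hearts. Whether the genotypes differed in the change from I30 to I30R60 was not tested for any gene of the set. Lung epithelial transcripts were high in the wildtype I30 hearts, and 4 of 8 lung markers fell between I30R60 and I30 hearts of wildtype mice (Sftpc with a difference of -2.54, adjusted p = 0.000266) and 0 of Per2-/- mice. Of 11 neutrophil markers 5 rose in Per2-/- hearts, and 1 fell in wildtype hearts. The part of these cells in the rises was not tested.

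In ischemia alone no gene of the set was called against sham. In Per2-/- I30 hearts 0 of 9 were called against sham by limma, where 0% of all genes were called in either direction. None of the 9 had an unadjusted p under 0.05 in limma or in the methods' t-test, where 7.14% of all genes had one in limma. In wildtype I30 hearts 0 of 9 were called, where 2.39% of all genes were. Of the 9, 2 had an unadjusted p under 0.05 in limma, near the share of 19.6% over all genes. In the t-test 1 had one, and 0 passed after adjustment. Averaged over both genotypes 0 of 9 were called and 1 had an unadjusted p under 0.05 in limma. Of all genes 1.61% were called and 20.1% had an unadjusted p under 0.05 there. The 2 wildtype genes were Thbs1 and Plat, both with every I30 heart below every sham heart. Plat differed by -0.49 (SE 0.14, adjusted p = 0.0621), and Thbs1, with 9.04, 8.58 and 9.47 in wildtype I30 hearts, by -1.15 (SE 0.41, adjusted p = 0.126).

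Ischemic preconditioning moved the matricellular genes, Plaur and Thbd towards higher values. In wildtype IP0 hearts 1 of 9 genes rose against sham, Ccn1, where 0.521% of all genes rose. An unadjusted p under 0.05 in limma was reached by 5 (Ccn1, Ccn2, Thbs1, Plaur and Thbd), where 12.1% of all genes reached it. In Per2-/- IP0 hearts 0 of 9 were called by limma, where 0.159% of all genes were called in either direction. The same 5 genes had an unadjusted p under 0.05 there in limma, where 8.23% of all genes did. In the t-test 2 of the 9 did, and 0 after its adjustment. Averaged over both genotypes, again a comparison added after the values were seen, these 5 of 9 genes rose, where 1.02% of all genes rose. Plat, Plau, F3 and Procr differed from sham by 0.18, 0.01, 0.10 and 0.16 in that comparison, none of them called.

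Ccn1 was nearly the same in all 6 IP0 hearts, at 11.20, 11.14 and 11.07 in Per2-/- and 11.10, 11.12 and 11.08 in wildtype mice. It rose in wildtype hearts by 1.26 (SE 0.15, adjusted p = 0.000166), or 2.40-fold, at rank 7 of 18820 genes by p value. It was also the 1 gene of 18820 that passed the methods' t-test after adjustment in this comparison. In Per2-/- hearts it differed by 0.67 (SE 0.15, adjusted p = 0.0997), with every IP0 heart above every sham heart. The interaction of genotype and IP0 was -0.59 (SE 0.21, unadjusted p = 0.0124, adjusted p = 0.97).

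Thbs1 was as even, at 11.37, 11.21 and 11.31 in Per2-/- IP0 hearts and 11.42, 11.42 and 11.37 in wildtype IP0 hearts, with SDs of 0.080 in Per2-/- and 0.025 in wildtype IP0 hearts. Its SDs were 1.26 in Per2-/- and 0.66 in wildtype sham hearts, and over all groups its SD of 0.55 lay at the 99.7th percentile of all genes. Averaged over genotypes it rose by 1.18 (SE 0.29, adjusted p = 0.0369). This call was lost on leaving out any 1 of 8 arrays, namely any Per2-/- or wildtype IP0 heart and wildtype sham replicate 1 or 3, with log2 differences of 1.08 to 1.2 and adjusted p of 0.0634 to 0.103. Thbs1 is abundant in platelets, and the mean level of platelet markers ranged over 4.72 to 4.86 in Per2-/- IP0 hearts and 4.60 to 4.61 in Per2-/- sham hearts, and over 4.98 to 5.20 and 4.60 to 4.61 in the same groups of wildtype hearts, with 0 of 7 called in either genotype. Their part in the level of Thbs1 was not tested. Ccn2, at 11.01, 10.70 and 11.03 in Per2-/- IP0 hearts and 10.67, 10.93 and 10.65 in wildtype IP0 hearts, rose by 0.83 (SE 0.16, adjusted p = 0.00719) over both genotypes. Its differences were 0.79 (adjusted p = 0.243) in Per2-/- and 0.87 (adjusted p = 0.0728) in wildtype hearts alone.

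Plaur had 6.07, 5.86 and 5.95 in Per2-/- IP0 hearts and 5.40, 6.71 and 5.82 in wildtype IP0 hearts, where replicate 1 lay below the highest sham heart. It rose by 1.06 over both genotypes (SE 0.23, adjusted p = 0.018), less than the 2.41 (SE 0.23) of I30R60 hearts. The call was lost without wildtype sham replicate 1 or 3 (0.97 and 1.00, adjusted p = 0.0582 and 0.0539). It was also lost without wildtype IP0 replicate 2 (0.87, adjusted p = 0.052). Without the arrays with high Myl7, which left 1 wildtype sham heart, the difference was 1.00. Thbd had 7.80, 7.87 and 7.81 in Per2-/- IP0 hearts and 7.78, 7.85 and 7.78 in wildtype IP0 hearts. Over both genotypes Thbd rose by 0.38 (SE 0.08, adjusted p = 0.0151). Without the arrays with high Myl7, and so with 1 wildtype sham heart, its difference was 0.33. The IP0 and I30R60 comparisons share their sham hearts.

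Between genotypes, genes of the set were called in I30 hearts. In I30 hearts 2 of 9 genes were higher in Per2-/- than in wildtype mice, Ccn1 and Thbs1, where 0.489% of all genes were called higher. Ccn1 had 10.93, 10.69 and 10.68 in Per2-/- I30 hearts and 9.88, 9.35 and 10.07 in wildtype I30 hearts. The difference was 1.00 (SE 0.15, adjusted p = 0.00225), or 1.99-fold, and the call held without any 1 array. It was lost with only these 6 arrays in the model (adjusted p = 0.177) and in the methods' t-test (adjusted p = 0.428). Ccn1 also differed in the same direction between sham hearts, by 0.63 (limma adjusted p = 0.116). Its interaction of genotype and I30 was 0.37 (SE 0.21, limma adjusted p = 0.765), so a difference particular to I30 was not shown. Thbs1 had 10.86, 10.99 and 10.98 in Per2-/- I30 hearts and 9.04, 8.58 and 9.47 in wildtype I30 hearts. This was a difference of 1.91 (SE 0.41, adjusted p = 0.0272), or 3.77-fold, and rank 2 of 18820 genes among differences towards higher values in Per2-/- hearts. Its adjusted p was 0.0901 to 0.117 without any 1 of the Per2-/- I30 hearts or wildtype I30 replicate 1 or 2, at differences of 1.69 to 1.95, and 0.31 in the methods' t-test.

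Ccn2 pointed the same way, at 10.37, 10.47 and 10.51 in Per2-/- I30 hearts and 9.53, 9.56 and 9.98 in wildtype I30 hearts. The groups did not overlap, but the difference of 0.76 (SE 0.22, adjusted p = 0.13) was not called. Without the arrays with high Myl7, none of them an I30 heart, its adjusted p was 0.02. Plau differed by 0.37 (SE 0.15, adjusted p = 0.308) and Plat by 0.28 (SE 0.14, adjusted p = 0.435), also without overlap. Plaur, F3, Thbd and Procr overlapped between genotypes, with differences of -0.16 to 0.25.

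**Figure D3:**
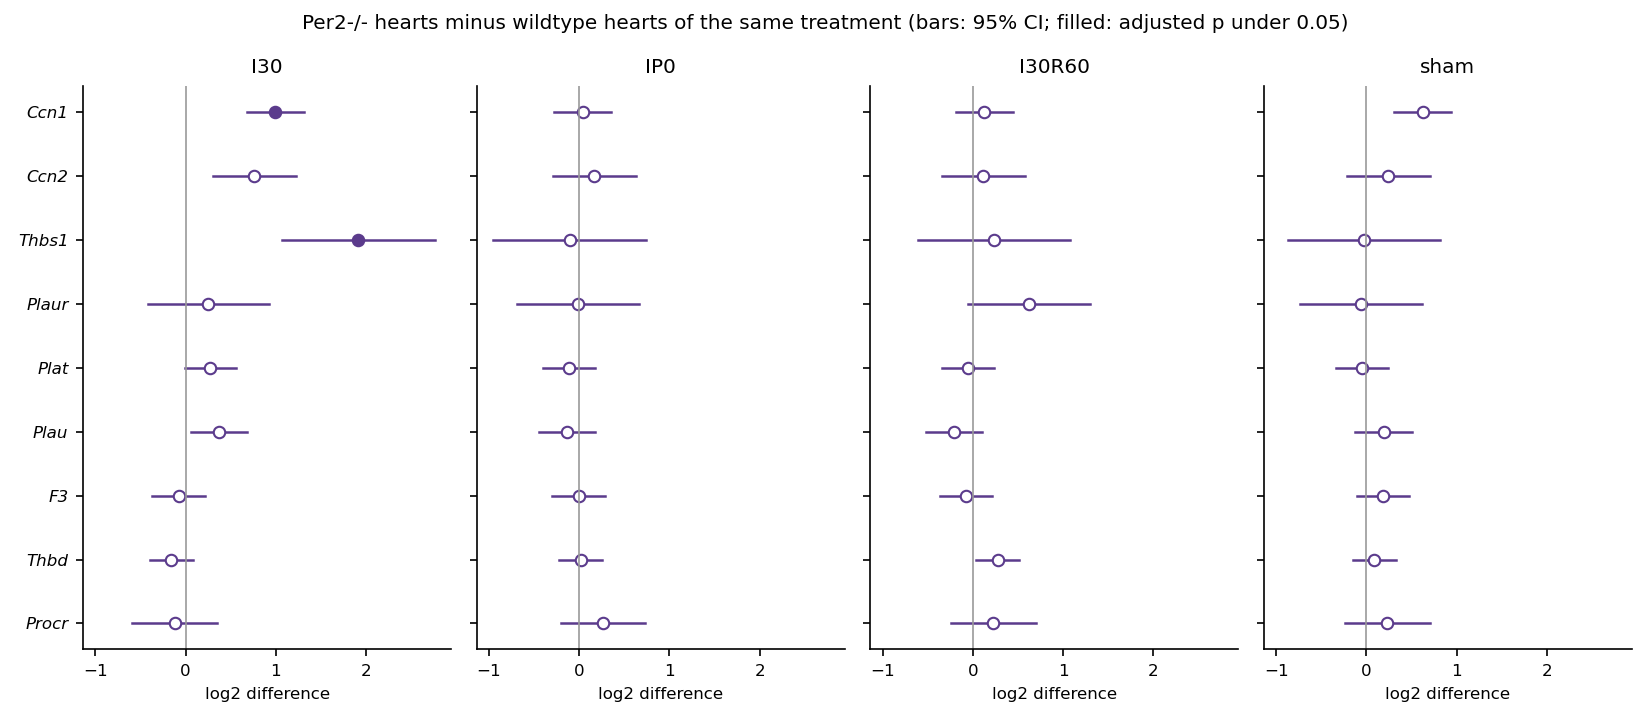
Log2 differences of the 9 genes between Per2-/- and wildtype hearts of the same treatment. Points are estimates from 3 hearts against 3, bars are 95% CI, and filled points have an adjusted p under 0.05. The filled points are Ccn1 (1.00) and Thbs1 (1.91) in I30 hearts, and in IP0 hearts the intervals of all 9 genes include 0.

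Lung markers moved with this comparison, in the wildtype I30 hearts. Of 8 lung epithelial markers, 4 rose in wildtype I30 hearts against sham, and 0 in Per2-/- I30 hearts. The list averaged between 3.06 and 3.17 in Per2-/- I30 hearts, against between 3.43 and 4.45 in wildtype I30 hearts, and between 2.89 and 3.21 in Per2-/- sham hearts, against between 2.79 and 2.90 in wildtype sham hearts. The surfactant gene Sftpc had 3.44, 3.24 and 3.30 in Per2-/- I30 hearts and 6.72, 5.49 and 4.22 in wildtype I30 hearts. The difference of Thbs1 between genotypes was 1.92 without wildtype I30 replicate 1, which had the most Sftpc (adjusted p = 0.0983), 1.69 without replicate 2 (adjusted p = 0.117) and 2.13 without replicate 3, which had the least (adjusted p = 0.0315). Endothelial markers averaged between 8.93 and 9.03 in Per2-/- I30 hearts, against 8.75 to 8.86 in wildtype I30 hearts, and neutrophil markers between 3.56 and 3.63, against 3.76 to 4.90 in the same groups. The part of these cells in the genotype difference was not tested. Wildtype I30 arrays also had a narrower spread of all values, with interquartile ranges down to 3.76 where arrays reached 4.11. After quantile normalization, which evens this out, the differences were 0.99 (adjusted p = 0.00242) for Ccn1 and 1.90 (adjusted p = 0.0328) for Thbs1.

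In the other treatments no gene of the set was called between genotypes. In sham hearts limma called 0 of 9, where 0.266% of all genes were called in either direction. In limma 7.38% of all genes had an unadjusted p under 0.05. Of the 9, 1 had one in limma and in the t-test, 0 after its adjustment. That gene was Ccn1, at 10.70, 10.58 and 10.12 in Per2-/- sham hearts and 9.86, 9.85 and 9.81 in wildtype sham hearts, a difference of 0.63 (SE 0.15, adjusted p = 0.116) with no overlap. Without Per2-/- sham replicate 3 it was 0.80 (adjusted p = 0.0185). In IP0 hearts 0 of 9 were called and 0 had an unadjusted p under 0.05 in either test. Of all genes 0.0797% were called and 5.82% had an unadjusted p under 0.05 in limma. In I30R60 hearts 0 of 9 were called, where 0.175% of all genes were and 8.33% had an unadjusted p under 0.05 in limma. There Thbd had an unadjusted p of 0.0254 in limma and none of the 9 passed the t-test before or after adjustment, and its difference was 0.28 (95% CI 0.04 to 0.52, adjusted p = 0.512).

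Whether the genotypes responded differently to a treatment was asked by the interaction of genotype and treatment. It called 0 of 9 genes for I30, for IP0 and for I30R60, and 0% of all genes in each of these 3 interactions. An unadjusted p under 0.05 was reached by 1 gene each: Thbs1 for I30, Ccn1 for IP0 and Ccn1 for I30R60. Of all genes 7.1%, 4.81% and 5.49% reached it in these interactions. The t-test was not run on interactions. The I30 interaction of Thbs1 was 1.94 (SE 0.57, 95% CI 0.74 to 3.14, unadjusted p = 0.00302, adjusted p = 0.461), the largest positive one of 18820 genes. The lung gene Sftpc had a larger negative one (-2.95, adjusted p = 0.109). Leaving out Per2-/- sham replicate 3, the low sham heart with the highest Myl7, made the Thbs1 interaction 1.22 (adjusted p = 0.405). Leaving out all 4 arrays with high Myl7, and so all but 1 wildtype sham heart, made it 0.81.

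**Figure D4:**
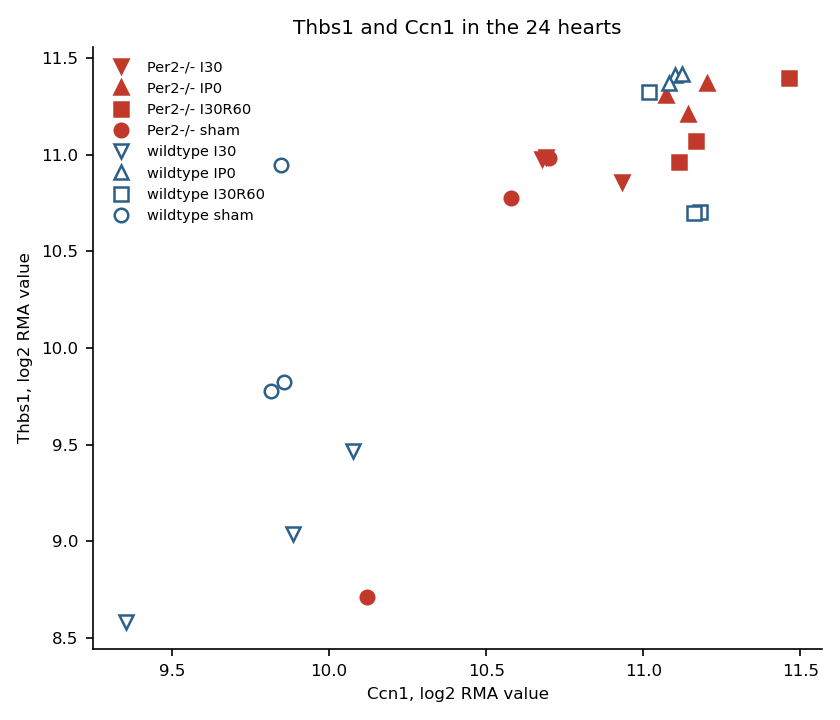
Log2 RMA values of Thbs1 (y axis) against Ccn1 (x axis) in the 24 hearts, with colour and fill for genotype (filled red Per2-/-, open blue wildtype) and symbol for treatment. The IP0 hearts of both genotypes stand together at the upper right, and the wildtype I30 hearts and Per2-/- sham replicate 3 (8.71) are lowest for Thbs1.

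The genes moved in groups over the 24 arrays, a description in which groups, arrays and normalization are shared. Pearson's r was 0.91 between Ccn1 and Ccn2, 0.86 between Ccn2 and Thbs1 and 0.83 between Ccn1 and Thbs1. After removing group means these became 0.56, 0.80 and 0.65. Plaur and Thbd correlated by 0.95 over the arrays and by 0.69 within groups. Procr correlated with Thbd by 0.77 over the arrays but by -0.05 within groups, and F3 with no other of the 9 above 0.21.

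Over the same 24 arrays and 18819 other genes, the genes most like Ccn1 were Nr4a3 (r = 0.94), Egr1 (0.94) and Plk3 (0.93), of which Egr1 and Nr4a3 are known immediate early genes. Those most like Ccn2 were Nr4a3 (0.93), Klf6 (0.92) and Ccn1 (0.91). Thbs1 was most like Ugdh (0.94), which encodes an enzyme of hyaluronan precursor synthesis, Gfpt2 (0.93), of the hexosamine pathway, and Zfp948 (0.91). Plaur was most like Sat1 (0.96), Ptx3 (0.95), which encodes a secreted pentraxin, and Litaf (0.95). Thbd was most like Litaf (0.98), Sat1 (0.97) and Ier3 (0.96). Litaf and Sat1 thus stood in both of these lists. The genes most like Plat were Rtn4, Mafk and Eid3 (0.89 each), and those most like Procr were Zhx3 (0.91), Prkch (0.87) and Map3k8 (0.85). The likeness was weaker for Plau, led by Sde2 (0.85), Gm8995 (0.85) and Luzp1 (0.84), and weakest for F3, led by Rtn1 (0.68), Slit3 (0.67) and Cdc42ep3 (0.67).

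Some genes of the wider pathways were called. In I30R60 hearts against sham 4.79% of all genes were called in either direction in Per2-/- mice and 2.47% in wildtype mice. Those that rose were 2.78% and 1.66%. Of 17 measured of 18 listed other matricellular genes, 0 rose and 1 fell in Per2-/- I30R60 hearts against sham, Fbln1 (fibulin 1, -0.31, SE 0.09, adjusted p = 0.0486), with a median of 0.16 over the list and -0.04 over all genes. In wildtype I30R60 hearts 0 were called, with a median of 0.11 over the list and -0.02 over all genes. In the I30 and IP0 comparisons with sham 0 of the 17 were called in either genotype. In I30 hearts Ccn3, another CCN family gene, was higher in Per2-/- than in wildtype mice by 0.96 (SE 0.22, adjusted p = 0.0475), 1 of the 17 called, where 0.664% of all genes were. It and Postn and Pros1, below, are named here because of their values. Between I30R60 and I30 hearts 1 of the 17 rose in each genotype, where 3.69% of all genes rose in Per2-/- and 3.24% in wildtype mice. These were Postn, which encodes periostin, in Per2-/- mice (0.82, SE 0.18, adjusted p = 0.00721) and Ccn3 in wildtype mice (0.80, SE 0.22, adjusted p = 0.0371).

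Of 30 measured of 32 listed other coagulation genes, 2 rose in Per2-/- I30R60 hearts and 1 in wildtype I30R60 hearts, and none fell. Of all genes 2.78% and 1.66% rose there. Tfpi2, a Kunitz-type protease inhibitor, had 6.04, 5.78 and 6.36 in Per2-/- I30R60 hearts and 5.11, 4.76 and 4.73 in Per2-/- sham hearts. In wildtype mice it had 6.12, 5.63 and 5.97 in I30R60 hearts and 4.99, 4.67 and 4.95 in sham hearts. It rose by 1.19 (SE 0.19, adjusted p = 0.000746) in Per2-/- and by 1.04 (SE 0.19, adjusted p = 0.00388) in wildtype hearts. F2r, which encodes the thrombin receptor PAR1, rose by 0.46 (SE 0.09, adjusted p = 0.00578) in Per2-/- I30R60 hearts. Between I30R60 and I30 hearts 3.69% of all genes rose in Per2-/- mice and 3.24% in wildtype mice. Of the 30, 3 rose there in Per2-/- mice and 2 in wildtype mice. These were Tfpi2 and F2r in both genotypes and, in Per2-/- mice, Pros1 (0.71, SE 0.13, adjusted p = 0.00233), which encodes protein S, the cofactor of activated protein C. The median of the list was 0.01 in Per2-/- I30R60 hearts. In wildtype I30 hearts against sham 2.39% of all genes were called in either direction, and 1 of the 30 rose. This was the fibrinogen gene Fgg (0.57, SE 0.13, adjusted p = 0.0315). Its log2 values were 2.74 to 3.14 in I30 hearts and 2.13 to 2.48 in sham hearts, far below the median of 5.15 over all gene means.

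In I30R60 hearts against sham 2.78% of all genes rose in Per2-/- mice and 1.66% in wildtype mice. Of 11 measured of 15 listed genes of the plasminogen system, 1 rose in Per2-/- I30R60 hearts and 0 in wildtype I30R60 hearts. It was S100a10, which encodes the partner of annexin A2 in a plasminogen receptor (0.61, SE 0.14, adjusted p = 0.0135). Plg, plasminogen itself, rose by 0.45 (SE 0.10, adjusted p = 0.0239) in wildtype I30 hearts, the group with the lung markers, at values of 2.97 to 3.12 in I30 hearts and 2.52 to 2.75 in sham hearts. Of a published signature of 22 targets of YAP and TAZ, coactivators of the Hippo pathway, which includes Ccn1, Ccn2 and F3, 4 rose in Per2-/- I30R60 hearts and 4 in wildtype I30R60 hearts, 2 of them each time being Ccn1 and Ccn2. The others were Gadd45a in both genotypes (1.12 and 1.07, SE 0.19 each, adjusted p = 0.00103 and 0.00219), Igfbp3 in Per2-/- hearts (0.55, SE 0.15, adjusted p = 0.0409) and Ankrd1 in wildtype hearts (0.48, SE 0.12, adjusted p = 0.0408). Without Ccn1, Ccn2 and F3 the median over the other 19 was 0.01 in Per2-/- and 0.06 in wildtype hearts, against -0.04 and -0.02 over all genes.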

How the data were processed

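Each of the 24 arrays (Affymetrix Mouse Gene ST, given as version 1.1 in the methods and 2.1 in the design text) measured left ventricular RNA of 1 mouse. The authors deposited log2 intensities, made by RMA in Partek Genomics Suite. They carry no detection calls, and the number of arrays limits their precision. Of 35555 probe sets, 21218 were paired with 1 gene symbol, 1881 with several and 12456 with none listed. The first gave 18820 genes, and for 1386 of them the probe set with the highest mean was taken.

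Comparisons used limma 3.58.1 under R 4.3.3 (a mean per group, 16 residual degrees of freedom, default moderation, Benjamini-Hochberg adjustment over all genes). The script was tested on simulated data. p values measure the spread between hearts. The members, gene lists and alternatives were chosen with earlier results of these data known. All 9 members are named, and from each pathway list the called genes of each comparison with sham, up to 4 by size. For each member the 3 genes of highest correlation are also named. Comparisons over both genotypes were added after the values were seen. The replicate numbers were not taken as pairs. Promoter letters were searched in Python 3.11.15.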

Additional observations from a re-analysis of the deposited data

Results flagged for a closer look

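The I30 response of Thbs1 pointed in opposite directions in the genotypes. It was 0.78 against sham in Per2-/- hearts and -1.15 against sham in wildtype hearts on the log2 scale, an interaction of 1.94 that did not pass the test (adjusted p = 0.461). The Per2-/- value rested on sham replicate 3, a heart with high Myl7 and low Thbs1, without which it was 0.06 (adjusted p = 0.977) and the interaction 1.22 (adjusted p = 0.405). Without all 4 arrays with high Myl7, which left 1 wildtype sham heart, the interaction of Thbs1 was 0.81. The IP0 response of Plau was -0.15 in Per2-/- hearts and 0.17 in wildtype hearts, an interaction of -0.32 that did not pass either (adjusted p = 0.997), and each of the 2 changes alone was not called. Without Per2-/- sham replicate 1 the Per2-/- change of Plau was -0.0071 and the interaction -0.18.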

How the results depend on the processing

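The number of the 9 genes called depended on the processing as follows, and the cause was not tested. With only the arrays compared in the model it was 2 for Per2-/- I30R60 against sham, 3 for wildtype I30R60, 1 for Per2-/- against wildtype I30 hearts (Thbs1, with Ccn1 lost) and 2 for IP0 over both genotypes, from fewer arrays. At an adjusted p under 0.01 these were 3, 4, 1 and 2. After adjustment the methods' t-test, run as Student's test on 3 hearts against 3, called 0 in Per2-/- and wildtype I30R60 against sham, against I30, and in Per2-/- against wildtype I30 hearts. Before adjustment 6, 7, 6, 7 and 3 of the 9 passed, where 2593, 2100, 2868, 2677 and 1766 of the 18820 genes passed. With dim genes left out, which leaves fewer genes tested, limma called 1 in Per2-/- IP0, 1 in wildtype I30 and 3 in wildtype IP0 hearts. With trended, robust moderation it called 1 in wildtype I30 and 2 in wildtype IP0 hearts and lost Thbs1 for IP0 over both genotypes (adjusted p = 0.0507), and with array weights 1 in wildtype I30, 4 in wildtype IP0, 1 in sham hearts between genotypes and 1 for I30 over both genotypes. Plat in wildtype I30R60 hearts was lost with array weights (adjusted p = 0.0526) and with arrays centred on their median (adjusted p = 0.0552). Without the 4 arrays with high Myl7 limma called 4 in Per2-/- I30R60 hearts (Ccn1 and Plat lost). Comparisons that use wildtype sham, alone or over both genotypes, then rested on 1 wildtype sham heart, so their calls are not counted.

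Leaving out 1 array at a time gave 1 to 2 genes in wildtype IP0 hearts (2 without wildtype sham replicate 2), 4 to 7 in wildtype I30R60 hearts (4 without wildtype sham replicate 2 or 3), 4 to 5 in Per2-/- I30R60 hearts, 0 to 1 between sham hearts (1, Ccn1, without Per2-/- sham replicate 3), 1 to 2 between I30 hearts and 3 to 5 for IP0 over both genotypes. A replicate block in the model gave the same numbers of calls, 6 and 7 in Per2-/- and wildtype I30R60 hearts. The numbers of the labels were not taken as pairs, since residuals of same-numbered arrays all correlated above 0.1 in 0 of 28 group pairs. Of 306 repeats of the 39 called changes with 1 array left out, 267 stayed called, 39 did not and 0 changed direction. With only the arrays compared in the model 27 of 39 stayed called, at an adjusted p under 0.01 28 of 39, and in the methods' t-test 1 of 27.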
